A study of Mus musculus with 8 samples.

Results

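The genes described here make cholesterol, sense it or move it. They were chosen by name, as 29 genes of the mevalonate and sterol pathway, its control by sterol regulatory element-binding proteins (SREBPs), and sterol transport and export. Of these, 27 had at least 1 probe set of their own on the arrays (60 probe sets in all, of 18194 named genes), and Acat2 and Soat1 were not analysed here. The measurements are from islets of Langerhans, the hormone-secreting cell clusters of the pancreas, of the inbred mouse strains AKR/J and C57Bl/6J. Both had been on a high-fat diet for 3 months, so no comparison with another diet is made. Each strain gave 4 RNA samples, each pooled from 2 mice and hybridised separately to an Affymetrix chip. Arrays 1 to 4 are AKR/J and arrays 5 to 8 C57Bl/6J. No sex, age or genetic change is stated in the labels. Because mice were pooled, p-values measure the spread between pools.

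Cholesterol is built in the endoplasmic reticulum from acetyl-CoA by way of mevalonate, farnesyl diphosphate, squalene and lanosterol. When the membrane of the endoplasmic reticulum is poor in sterol, SCAP carries the SREBPs to the Golgi, where they are cut and released to the nucleus, and SREBP-2 then drives most genes of the route, while INSIG proteins hold SCAP back when sterol is plentiful. Excess cholesterol is stored as ester or leaves the cell through ABCA1 and ABCG1. In beta cells, cholesterol of the plasma and granule membranes is known to matter for insulin secretion.

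Between 43.7% and 48.1% of the probe sets were detected per array. Values are the authors' GCRMA intensities on the log2 scale, on which 1 unit is a 2-fold step, and levels of different genes cannot be compared on this scale because each probe set binds differently. A gene was tested if at least 4 of 8 arrays detected a probe set of it, which 25 of the 27 genes and 45 of their 60 probe sets passed, and it is represented by its brightest tested probe set unless another is named. The test is limma's, with p-values adjusted by Benjamini-Hochberg over all 20772 tested probe sets, and a gene is called at an adjusted p under 0.05. All 8 measured beta cell markers, among them Ins2 and Iapp, were detected on all 8 arrays, and 2 of them, Ucn3 and Slc2a2, were lower in AKR/J. Markers of cells other than beta cells differed between the strains. All 14 measured markers of acinar cells, which make digestive enzymes, were lower in AKR/J (summed intensity 253203 to 292409 in AKR/J, against 415802 to 422790 in C57Bl/6J), as were 8 of 13 macrophage markers (1972 to 2487 in AKR/J, against 3467 to 4543 in C57Bl/6J), and all 6 tested markers of dividing cells were higher. Of 9 endothelial markers, 4 were called higher in AKR/J (Cdh5, Tek, Esam and Ramp2), all 9 had a positive difference, and their median log2 difference was 0.35. In such bulk samples, fewer cells of a type and less RNA per cell cannot be told apart. As a measure of RNA quality, Gapdh's 3' control minus its 5' control on the log2 scale was -0.28 ± 0.04 in AKR/J, against -0.13 ± 0.16 in C57Bl/6J (SD, n = 4 each; exact permutation p = 0.0286, the smallest that 4 against 4 arrays allow, two-sided; adjusted 0.0572 over 2 measures), and actin gave 1.29 ± 0.05 in AKR/J, against 1.24 ± 0.12 in C57Bl/6J (exact permutation p = 0.429).

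The promoters of 5 members are printed because the results turn on these genes: Idi1, Msmo1 and Hmgcs1 had the largest excess of AKR/J array 4 over AKR/J array 2 among the tested synthesis genes, and Ggps1 and Sc5d were called lower in AKR/J. Each line gives the 150 bases before the annotated transcription start on the gene's own strand, from RefSeq (GRCm38.p6, the C57BL/6J genome). Capitals mark the CCAAT box, a site known for factor NF-Y (CCAAT, or ATTGG where it lies on the other strand), in Hmgcs1 also a sterol regulatory element (TCACNCCAC), the known kind of site of the SREBPs, and in Sc5d also an E-box (CACGTG).
Idi1, chr13:8885456-8885605, plus strand: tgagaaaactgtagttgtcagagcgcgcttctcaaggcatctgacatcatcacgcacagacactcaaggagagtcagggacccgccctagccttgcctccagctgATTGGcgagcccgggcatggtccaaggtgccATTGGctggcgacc
Msmo1, chr8:64733579-64733728, minus strand: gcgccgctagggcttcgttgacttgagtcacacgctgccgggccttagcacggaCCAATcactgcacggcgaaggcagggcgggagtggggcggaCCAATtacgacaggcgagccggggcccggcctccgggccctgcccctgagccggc
Hmgcs1, chr13:119690201-119690350, plus strand: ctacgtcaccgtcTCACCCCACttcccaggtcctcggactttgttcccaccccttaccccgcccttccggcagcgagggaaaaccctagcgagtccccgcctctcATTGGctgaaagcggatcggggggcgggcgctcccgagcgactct
Ggps1, chr13:14063489-14063638, minus strand: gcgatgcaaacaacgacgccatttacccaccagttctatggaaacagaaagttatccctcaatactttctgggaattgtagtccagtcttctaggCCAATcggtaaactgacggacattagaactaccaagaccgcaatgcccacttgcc
Sc5d, chr9:42264301-42264450, minus strand: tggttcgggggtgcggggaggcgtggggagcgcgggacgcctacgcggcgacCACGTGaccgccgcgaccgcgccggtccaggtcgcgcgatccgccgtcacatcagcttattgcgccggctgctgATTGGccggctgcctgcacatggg

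The table of promoters held 21 of the 27 genes. Over the 250 bases before the start, searched on both strands, CCAAT was present in a listed promoter of 15 of 15 synthesis genes and 4 of 5 SREBP control genes, and it was in 33.8% of all listed promoters and 37.5% of all genes with one. TCACNCCAC was in 1 member, Hmgcs1, and in 1.05% of all promoters and 1.22% of all genes with one. CACGTG was in 6 members, namely Dhcr7, Hsd17b7, Sc5d, Insig1, Scap and Abca1. It was in 6.02% of all promoters and 6.86% of all genes with one. The GC box GGGCGG was in 19 members, and in 32.7% of all promoters and 35.4% of all genes with one. Matches of different motifs did not overlap in the members (0 overlapping pairs among 86 matches). Dhcr7, Insig2, Pmvk, Scap and Srebf1 have more than 1 listed promoter and so more chances of a match. A match is only a run of letters, and a window without one says nothing of the factor.

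The strain comparison asked which of these genes were expressed at different levels in AKR/J and C57Bl/6J islets on the diet. Sc5d, Npc1 and Ggps1 were lower in AKR/J, and no member was called higher. That is 3 of 25 tested members called, 0 of them higher, where 16.3% of all 10891 tested genes were called, 7.79% higher and 8.53% lower. At an unadjusted p under 0.05, 3 of the 25 members were higher and 4 were lower by limma, where 16% of all tested genes were higher and 16.9% lower. The members' share lies near that of all genes. Their median log2 difference was 0.03, against 0.00 over all tested genes, and the median size of a difference, regardless of sign, was 0.20 for the members and 0.19 for all genes. The ranges of the strains were apart for 5 members (Ggps1, Sc5d, Npc1, Abcg1 and, narrowly, Tm7sf2), and for 25.1% of all tested genes.

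**Figure D1:**
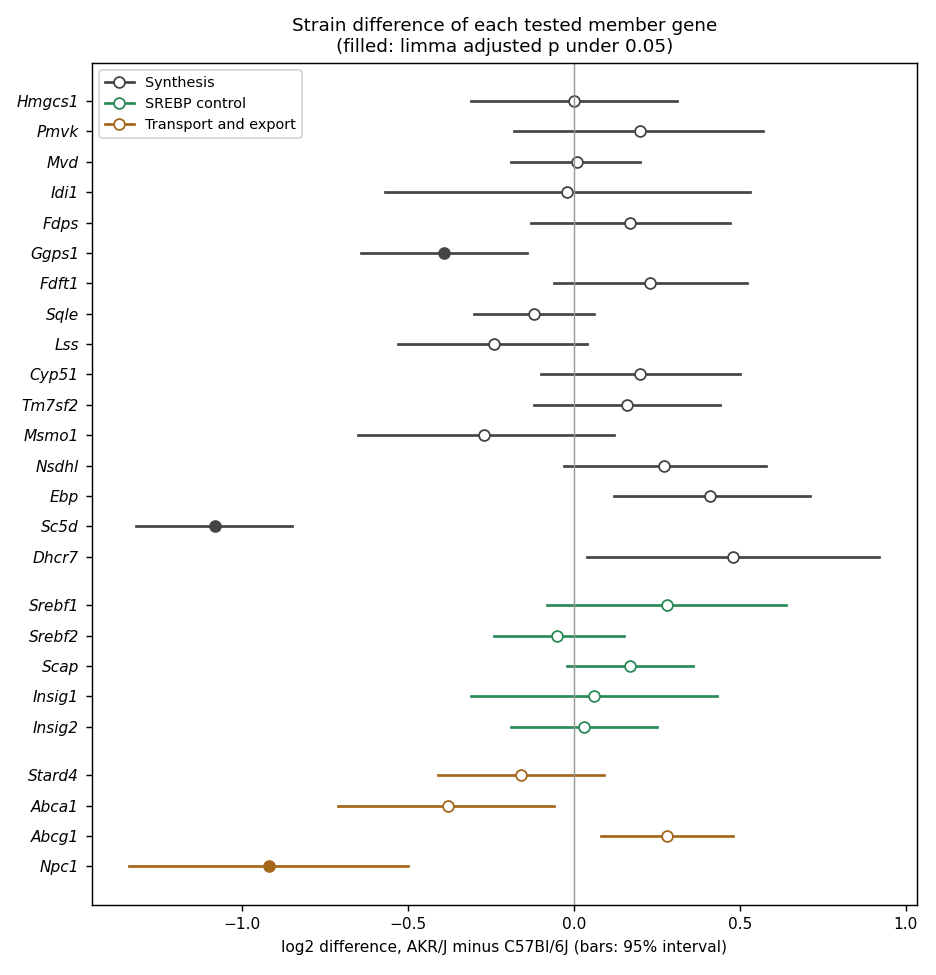
Log2 difference between the strains (AKR/J minus C57Bl/6J, horizontal axis) for each of the 25 tested members, in the order of the pathway, with 95% intervals from limma that are not adjusted for the number of genes. Filled points mark the 3 called genes, Ggps1, Sc5d and Npc1, all lower in AKR/J; the other 22 points lie between -0.38 and 0.48.

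The synthesis route begins with Hmgcs1, which makes the precursor that is reduced to mevalonate. Hmgcs1 was at 10.33, 9.90, 10.16 and 10.50 in AKR/J, against 10.26, 10.09, 10.16 and 10.39 in C57Bl/6J. The strains overlapped throughout, with a difference of 0.00 on the log2 scale (95% interval -0.31 to 0.31, limma adjusted p = 1). The 4 tested probe sets of Hmgcs1 gave differences from -0.05 to 0.10. Idi1, which isomerises the isoprene units, averaged 7.40 ± 0.53 in AKR/J, against 7.42 ± 0.11 in C57Bl/6J (SD, n = 4 each), and Fdps, which joins them into farnesyl diphosphate, 8.90 ± 0.23 and 8.72 ± 0.15 in the same order. Pmvk, phosphomevalonate kinase, averaged 6.75 ± 0.23 in AKR/J, against 6.55 ± 0.28 in C57Bl/6J. None of these was called. Mvd, the decarboxylase of this stretch, was tested, but it was detected on 1 AKR/J array and 4 C57Bl/6J arrays, and its values of 2.19 to 2.37 in AKR/J, against 2.13 to 2.43 in C57Bl/6J, lie near the bottom of the scale. The mevalonate kinase gene Mvk was not detected on any array by either of its probe sets and was not tested.

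Of the steps from squalene to lanosterol, none was called by its brightest probe set, and Lss was called by its dimmer one. Fdft1, squalene synthase, averaged 9.32 ± 0.22 in AKR/J, against 9.10 ± 0.14 in C57Bl/6J (SD, n = 4 each; difference 0.23, 95% interval -0.06 to 0.52). Sqle, the epoxidase that commits squalene to sterols, was at 9.74, 9.61, 9.81 and 9.90 in AKR/J, against 9.81, 9.93, 9.91 and 9.89 in C57Bl/6J (difference -0.12, 95% interval -0.30 to 0.06). Its strains overlapped in a narrow band. Lss, which closes the rings to lanosterol, gave -0.24 by its brighter probe set (limma adjusted p = 0.235) and -0.49 by a dimmer one, 1426913_at, with an adjusted p of 0.0389, which is past the threshold. By that dimmer probe set the strains did not overlap, at 6.29, 6.43, 6.66 and 6.76 in AKR/J, against 6.85, 7.26, 7.02 and 6.99 in C57Bl/6J. Its call was lost on the MAS5-type scale (adjusted p = 0.116) and in 6 of the 8 fits that each left out 1 array, all but those without array 4 or array 5.

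After lanosterol the genes went either way, and Sc5d alone was called. Cyp51, the lanosterol demethylase, averaged 8.41 ± 0.24 in AKR/J, against 8.21 ± 0.14 in C57Bl/6J, with its 2 tested probe sets at 0.20 and -0.27. Msmo1, the methylsterol oxidase, averaged 9.73 ± 0.33 in AKR/J, against 10.00 ± 0.17 in C57Bl/6J (difference -0.27). Nsdhl, which acts with it, was at 7.27, 7.32, 7.34 and 7.37 in AKR/J, against 6.76, 6.87, 7.30 and 7.28 in C57Bl/6J. Arrays 5 and 6 were low and arrays 7 and 8 lay among the AKR/J values. Ebp, the sterol isomerase, was at 8.98, 9.26, 8.84 and 8.86 in AKR/J, against 8.85, 8.41, 8.53 and 8.51 in C57Bl/6J, a difference of 0.41 that missed the threshold (limma adjusted p = 0.0702) and passed it without C57Bl/6J array 5 (0.0371), the C57Bl/6J array that lay inside the AKR/J range. Dhcr7, the last reductase of the route, was at 7.45, 7.18, 7.86 and 7.57 in AKR/J, against 7.41, 7.17, 6.69 and 6.86 in C57Bl/6J. Its difference was 0.48 (95% interval 0.04 to 0.92, limma adjusted p = 0.136), and on this scale arrays 5 and 6 lay within or next to the AKR/J range. With the MAS5-type signals the Dhcr7 difference was 0.67 and not called (limma adjusted p = 0.0549). The MAS5-type values were 7.46 to 8.05 in AKR/J, against 7.39, 6.89, 6.69 and 6.85 in C57Bl/6J, so array 6 was low there too. Tm7sf2, a sterol reductase, averaged 5.84 ± 0.26 in AKR/J, against 5.68 ± 0.01 in C57Bl/6J (adjusted p = 0.427). Hsd17b7, a ketosteroid reductase, was detected by its brightest probe set on 1 array of each strain and was not tested.

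Sc5d, the desaturase that turns lathosterol into 7-dehydrocholesterol, was 2.12-fold lower in AKR/J by its brightest probe set. By that probe set, 1451457_at, it was at 7.51, 7.48, 7.19 and 7.17 in AKR/J, against 8.46, 8.32, 8.37 and 8.53 in C57Bl/6J. The strains were well apart, by -1.08 on the log2 scale (SE 0.10, 95% interval -1.32 to -0.85, limma adjusted p = 0.000393), and with the MAS5-type signals by -0.96. The other probe sets of Sc5d did not show this. The second, 1434520_at, was at 6.79, 6.45, 6.30 and 6.77 in AKR/J, against 6.45, 6.40, 6.30 and 5.94 in C57Bl/6J, a difference of 0.31 in the opposite direction that was not called (95% interval -0.05 to 0.66, adjusted p = 0.225). The third, 1424709_at, averaged 4.20 ± 0.12 in AKR/J, against 4.21 ± 0.09 in C57Bl/6J. It was detected on only 3 AKR/J and 2 C57Bl/6J arrays, with values of 4.13 to 4.37, so it says little of a strain difference. With the mean of the 3 probe sets, this dim one included, the Sc5d difference was -0.26 and not called (limma adjusted p = 0.0541). A sequence difference between the strains under the probes, or a different share of transcript ends, cannot be told apart from a difference in transcript level with these arrays, for Sc5d as for Ggps1 and Npc1.

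Ggps1, which makes geranylgeranyl diphosphate for the lipid anchors of small GTPases, was lower in AKR/J by all 4 of its tested probe sets, though by very different amounts. The brightest, 1419805_s_at, was at 6.16, 6.09, 6.29 and 6.57 in AKR/J, against 6.76, 6.62, 6.63 and 6.68 in C57Bl/6J (difference -0.39, SE 0.11, limma adjusted p = 0.0476). The strains were just apart there, with AKR/J array 4 next to the C57Bl/6J values. Probe set 1419506_at was at 5.30, 4.55, 5.64 and 5.38 in AKR/J, against 7.69, 7.30, 7.38 and 7.36 in C57Bl/6J, 4.64-fold lower in AKR/J (difference -2.21, adjusted p = 0.000535). Probe set 1429356_s_at was 3.57-fold lower (3.78 ± 0.25 in AKR/J, against 5.62 ± 0.15 in C57Bl/6J, means ± SD of 4 arrays; adjusted p = 0.000104) and 1419505_a_at 2.19-fold lower (3.39 ± 0.35 and 4.52 ± 0.33 in the same order; adjusted p = 0.0111). No array of one strain overlapped the other by any of the 4. The call of the brightest probe set was lost in 7 of the 8 fits that each left out 1 array, all but that without AKR/J array 4 (adjusted p 0.0112 to 0.118 over the 8), and with the MAS5-type signals (difference -0.64, adjusted p = 0.129), whereas the calls of the other 3 were kept in all 8. With the MAS5-type signals the log2 differences were -1.77 for 1419506_at (adjusted p = 1.54e-05), -0.96 for 1429356_s_at (0.00906) and -0.42 for 1419505_a_at, which lost its call (0.0982), so the sizes depend on the signal used.

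**Figure D2:**
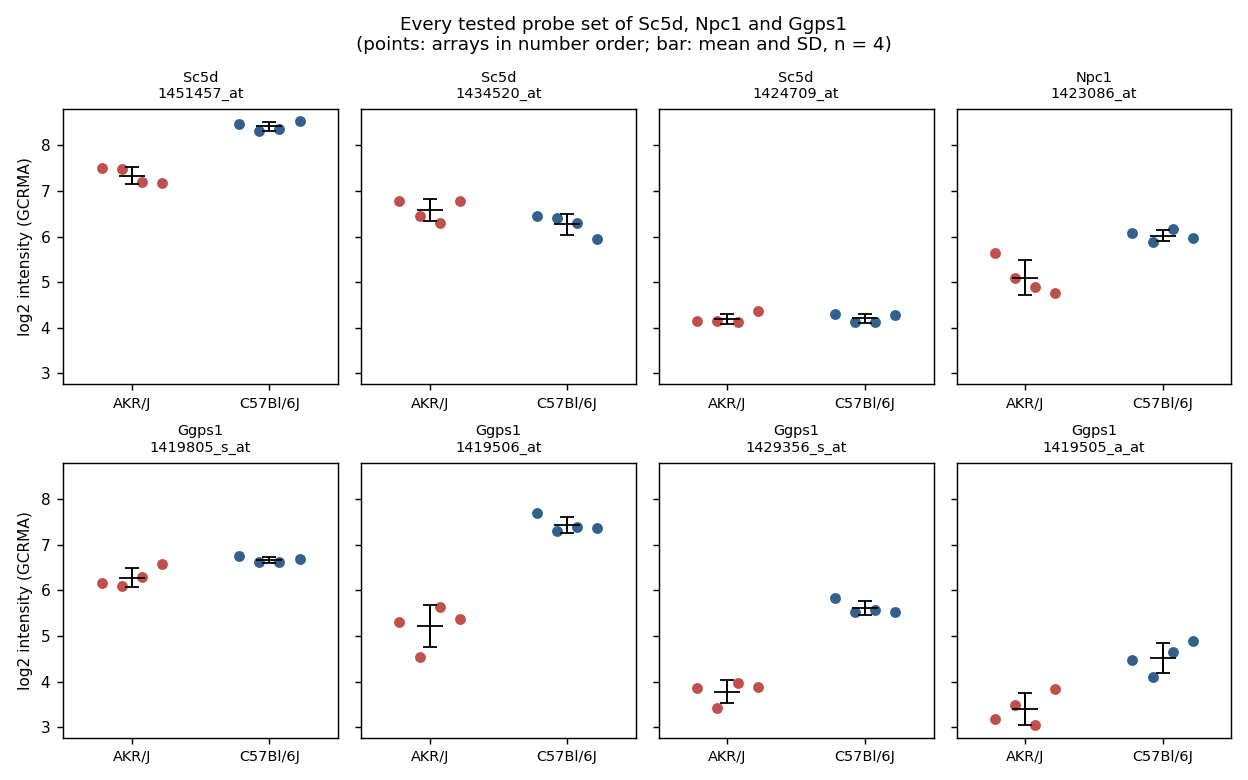
Log2 GCRMA intensity (vertical axis) on the 4 AKR/J and the 4 C57Bl/6J arrays for every tested probe set of Sc5d, Npc1 and Ggps1; bars are the mean and SD. The 4 Ggps1 probe sets all lie lower in AKR/J, by 0.39 to 2.21, while of the 3 Sc5d probe sets 1 does, by 1.08.

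Of the 5 genes of SREBP control, 0 were called by limma by their brightest probe sets, with 0 at an unadjusted p under 0.05. Over all tested genes 16.3% were called, and with 5 genes a count of 0 says little. Srebf1 encodes the SREBP-1 proteins, which mainly drive fatty acid synthesis. It was at 9.09, 9.09, 9.44 and 9.18 in AKR/J, against 9.00, 9.29, 8.83 and 8.56 in C57Bl/6J (difference 0.28, 95% interval -0.08 to 0.64, adjusted p = 0.275). Arrays 7 and 8 were the lowest, and array 6 lay inside the AKR/J range. Srebf2, which encodes SREBP-2, averaged 7.39 ± 0.11 in AKR/J, against 7.43 ± 0.11 in C57Bl/6J (SD, n = 4 each; 95% interval of the difference -0.24 to 0.15). Scap, the escort protein, averaged 9.29 ± 0.09 in AKR/J, against 9.12 ± 0.12 in C57Bl/6J (adjusted p = 0.212). With the MAS5-type signals its difference was 0.43 and was called (adjusted p = 0.0463). Insig1, itself a known SREBP target, was at 8.81, 8.84, 9.06 and 9.26 in AKR/J, against 8.78, 8.77, 8.83 and 9.36 in C57Bl/6J. Array 8 was the highest of all 8 and the other C57Bl/6J arrays lay at the low end, so the difference was 0.06 (95% interval -0.31 to 0.43). With the MAS5-type signals it was -0.36 and not called (limma adjusted p = 0.225). There C57Bl/6J arrays 5, 6 and 7 were at 9.23, 8.93 and 9.27, against 8.51 to 9.22 in AKR/J. Insig2 averaged 8.87 ± 0.08 in AKR/J, against 8.84 ± 0.17 in C57Bl/6J, and its 3 probe sets gave -0.10 to 0.31. The 0.31 came from 1417982_at, which was nearly as bright (mean 8.70 over all arrays, against 8.86). Its 95% interval was 0.06 to 0.56 (limma unadjusted p = 0.0225, adjusted p = 0.102). It was called in 1 of the 8 fits that each left out 1 array (adjusted p = 0.0396).

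Among the transport and export genes, 1 of 4 tested was called, where 16.3% of all tested genes were. Npc1, the membrane protein that passes cholesterol out of the lysosome, was at 5.64, 5.10, 4.90 and 4.76 in AKR/J, against 6.08, 5.89, 6.16 and 5.96 in C57Bl/6J. The strains were apart, Npc1 being 1.90-fold lower in AKR/J (difference -0.92, SE 0.18, 95% interval -1.34 to -0.50, limma adjusted p = 0.013), and it has only 1 probe set. It was called in all 8 fits that each left out 1 array (adjusted p 0.00149 to 0.0383) and with the MAS5-type signals (-0.82), but not with arrays 1, 2, 5 and 6 alone (-0.61, adjusted p = 0.189). Npc2, its soluble partner, averaged 11.35 ± 0.07 in AKR/J, against 11.34 ± 0.15 in C57Bl/6J.

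Abca1, the exporter that loads apolipoprotein A-I, was at 10.70, 10.63, 10.56 and 10.46 in AKR/J, against 10.94, 11.28, 10.60 and 11.07 in C57Bl/6J. Array 7 lay among the AKR/J values and the other C57Bl/6J arrays above them. The difference was -0.38 (95% interval -0.71 to -0.06) and was not called (limma adjusted p = 0.109), but was without array 7 (-0.51, adjusted p = 0.022). Its 3 probe sets gave -0.33 to -0.56, and on both dimmer ones arrays 5 and 6 were highest. Abcg1, the exporter to high-density lipoprotein, went the other way, at 9.73, 9.78, 9.58 and 9.46 in AKR/J, against 9.35, 9.25, 9.43 and 9.40 in C57Bl/6J. Its strains did not overlap, yet its difference of 0.28 (95% interval 0.08 to 0.48, adjusted p = 0.0713) passed only without array 4 among the fits that left out 1 array (adjusted p = 0.0483). Stard4, a carrier of sterol between membranes, averaged 7.53 ± 0.21 in AKR/J, against 7.69 ± 0.06 in C57Bl/6J and was not called. Macrophages are known to express Abca1, Abcg1 and Npc1, and 8 of 13 macrophage markers were lower in AKR/J, with Csf1r at 7.24 ± 0.20 in AKR/J, against 8.16 ± 0.31 in C57Bl/6J (SD, n = 4 each). The part of these cells, and of the acinar cells whose 14 markers were all lower in AKR/J, in the differences of Npc1, Sc5d and Ggps1 was not tested.

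**Figure D3:**
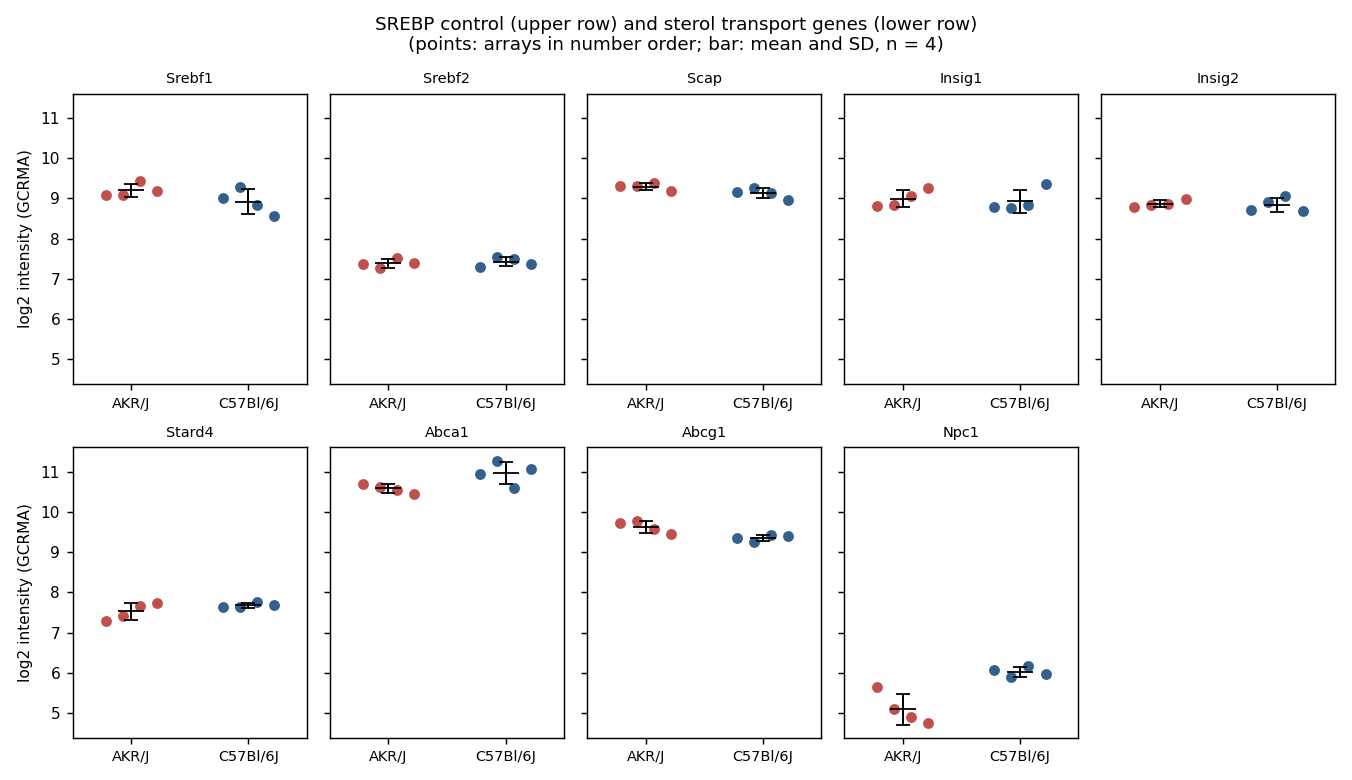
Log2 GCRMA intensity (vertical axis) of the 5 SREBP control genes (upper row) and the 4 transport genes (lower row) on the 4 AKR/J and the 4 C57Bl/6J arrays; bars are the mean and SD. Only Npc1, lower in AKR/J by 0.92, was called; the high C57Bl/6J point of Insig1 is array 8, at 9.36.

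Within AKR/J, many synthesis genes were high on one array and low on another. The mean over the 16 tested synthesis genes, each taken relative to its mean in its strain, was 0.04, -0.14, -0.05 and 0.15 on arrays 1 to 4 of AKR/J and 0.08, 0.02, -0.04 and -0.06 on arrays 5 to 8 of C57Bl/6J. Array 4 was therefore the highest and array 2 the lowest, and the C57Bl/6J arrays lay closer together. Relative to the mean of all 8 arrays, the strains' means of this value both came to 0.00, with an SD of 0.12 in AKR/J, against 0.07 in C57Bl/6J (n = 4 each).

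Idi1 had the widest AKR/J spread of the 16 genes, at 7.36, 6.75, 7.46 and 8.04 on the AKR/J arrays, so that array 4 stood 2.45-fold above array 2, while the C57Bl/6J arrays were at 7.45, 7.55, 7.29 and 7.39. Msmo1 was at 9.68, 9.34, 9.76 and 10.15 in AKR/J, with array 4 at 1.75-fold of array 2, and at 10.14, 10.15, 9.87 and 9.84 in C57Bl/6J. For Hmgcs1 the ratio of these arrays was 1.51, for Fdps 1.42, for Ggps1 1.39 and for Sqle 1.23. With the MAS5-type signals, array 4 minus array 2 on the log2 scale was 1.53 for Idi1, 0.68 for Msmo1 and 0.71 for Hmgcs1. Insig1 was also higher on array 4 than on array 2, by 0.42, whereas Sc5d (-0.31) and Ebp (-0.40) were lower.

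Array 4 was the highest and array 2 the lowest of the AKR/J arrays for 7 of the 16 synthesis genes, Hmgcs1, Mvd, Idi1, Fdps, Ggps1, Sqle and Msmo1, which is 43.8% of them, and for 9.57% of all tested genes. The same held for all 4 tested probe sets of Hmgcs1 and both of Idi1, which share the arrays' RNA, but for 1 of the 4 of Ggps1, and Mvd was near the bottom of the scale. This pattern was noticed in the data and was not tested, and it compares single pools of mice. Array 4 was also the highest AKR/J array for 10 of 13 macrophage markers, whose summed intensity was 2487 there and 1972 to 2131 on the other AKR/J arrays. It was the highest with array 2 the lowest for 4 of these 13 (30.8%) and for 0 of 14 acinar markers. The acinar sum of 271886 on array 4 lay within the range of the other 3. The part of these cells in the pattern was not tested. Over all tested genes, array 4 was the highest AKR/J array for 25.9% and array 2 the lowest for 30.2%. Among 13 genes of fatty acid synthesis, array 2 was the lowest AKR/J array for 7, as it was for 9 of the 16 cholesterol synthesis genes. Array 4 was the highest for 1 of the 13, against 10 of the 16. The difference between these lists was not tested.

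**Figure D4:**
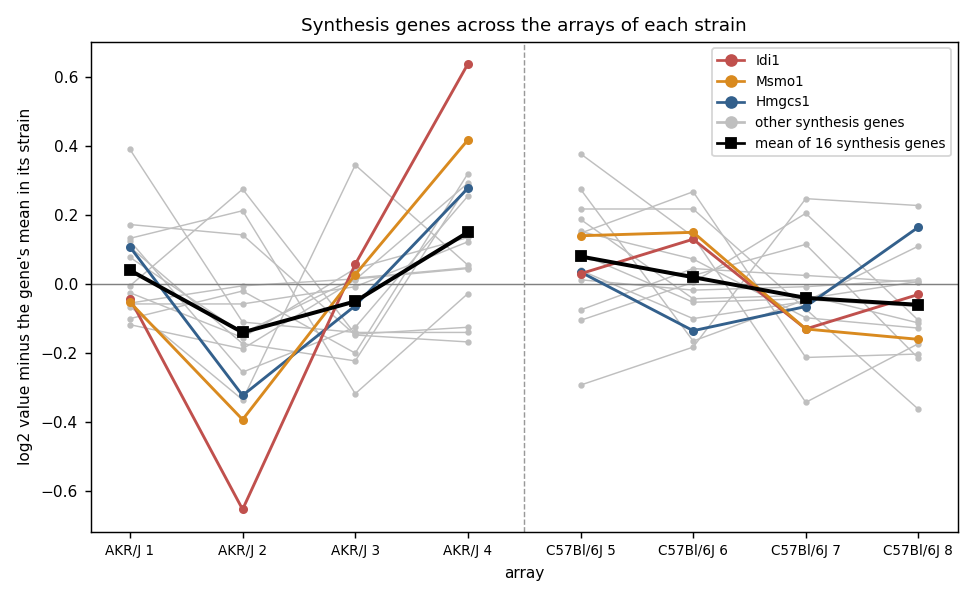
Log2 value of each of the 16 tested synthesis genes minus its mean in its own strain (vertical axis), by array (horizontal axis; arrays of a strain have no order and lines only join the points of a gene). Idi1, Msmo1 and Hmgcs1 are coloured and black squares are the mean of the 16 genes, which is highest at 0.15 on AKR/J array 4 and lowest at -0.14 on AKR/J array 2.

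Other genes of the pathway were read from 6 further lists. Of 13 tested genes of fatty acid synthesis that SREBP-1 is known to drive, 8 were called higher in AKR/J and 0 lower. Their median log2 difference was 0.53. Over all tested genes, 7.79% were called higher and 8.53% lower. This list, like the others, was chosen with earlier results of these data known, so its count is not independent of them. The stearoyl-CoA desaturase gene Scd1 was at 6.28, 5.78, 6.25 and 6.08 in AKR/J, against 5.04, 4.96, 4.83 and 4.76 in C57Bl/6J (2.30-fold, limma adjusted p = 0.00063), and its relative Scd2 (2.18-fold) and the desaturase gene Fads2 (2.43-fold) followed. The count of genes called higher ran from 6 to 8 of 13 when 1 array was left out. It was 2 in either set of 4 arrays taken alone (1, 2, 5 and 6, or 3, 4, 7 and 8). The list's median log2 difference in these sets was 0.51 and 0.61, in that order. Over all 10891 tested genes, the count called higher fell from 848 to 240 and 94 in the same sets, each with fewer arrays. Cholesterol synthesis had 0 of 16 called higher by limma, with 2 at an unadjusted p under 0.05, and whether the groups of genes differ was not tested. Of 5 fat cell markers with a probe set, the 2 that were tested, Lpl and Fabp4, were lower in AKR/J, and Cidec and Lep were not detected on any array, while 4 of 9 endothelial markers were higher. The part of these cells in the fatty acid genes was not tested.

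Of 7 other synthesis and uptake genes with a probe set, 6 were tested, 0 were higher and 2 were lower in AKR/J. Tmem97, a sterol-responsive membrane protein that binds NPC1, was at 5.71, 5.85, 6.38 and 6.37 in AKR/J, against 7.60, 6.88, 7.62 and 7.27 in C57Bl/6J (2.40-fold lower, limma adjusted p = 0.00738). Acat1, the mitochondrial thiolase, whose part in cholesterol synthesis is not established here, was 1.35-fold lower (limma adjusted p = 0.0156). The strains did not overlap for either gene. Both were called in all 8 fits that left out 1 array, but neither was with the MAS5-type signals, where Tmem97 was 1.45-fold lower (adjusted p = 0.132) and Acat1 1.29-fold (0.0988), or in either set of 4 arrays. Of 11 genes in the list for SREBP processing, 0 were higher and 2 were lower. Erlin2, which helps degrade the reductase of the pathway and INSIG, was 1.33-fold lower (limma adjusted p = 0.0409). Trim8, whose part in SREBP processing is not established here, was 1.26-fold lower (adjusted p = 0.0473). Erlin2 was called in 2 of the 8 fits that left out 1 array, those without array 3 or 5, and Trim8 in 0 of 8 (adjusted p 0.0561 to 0.0969). Neither was called with the MAS5-type signals, where Erlin2 differed by -0.10. The proteases that cut the SREBPs did not differ beyond the test, Mbtps1 being at 9.03 ± 0.15 in AKR/J, against 9.01 ± 0.03 in C57Bl/6J (SD, n = 4 each) and Mbtps2 at 7.59 ± 0.14 and 7.58 ± 0.13 in the same order.

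Of 9 tested genes of the LXR receptors and lipoprotein handling, 0 were called by limma, with 1 higher and 0 lower at an unadjusted p under 0.05. That gene, Abca7, a lipid transporter related to Abca1, was chosen after its value was seen. It differed by 0.32 without overlap (adjusted p = 0.0514) and by -0.03 with the MAS5-type signals, and it was called in 6 of 13 alternatives other than leaving out 1 array, and without array 6. The brightest members of the list were Lpcat3, at 9.14 ± 0.04 in AKR/J, against 9.13 ± 0.09 in C57Bl/6J, and Apoe, at 8.52 ± 0.23 and 8.77 ± 0.11 in the same order (SD, n = 4 each). Of 13 genes of the lysosome and of sterol transfer, 1 was higher, Stard3nl, a protein of late endosome contacts (1.40-fold, adjusted p = 0.0272), and 0 were lower. Of 9 genes of the isoprenoid branch, 1 was higher, Dhdds, a subunit of the enzyme that makes dolichol precursors (1.45-fold, adjusted p = 0.0354), and 0 were lower. With 1 array left out, Stard3nl was called in 3 of 8 fits (those without array 1, 3 or 8) and Dhdds in 2 of 8 (those without array 5 or 6), and neither was called with no filter or in either set of 4 arrays. With the MAS5-type signals Stard3nl was called (adjusted p = 0.0379) and Dhdds was not (0.312). The shares called in these lists stand beside 16.3% of all tested genes.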

How the data were processed

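Islet RNA of 4 AKR/J and 4 C57Bl/6J pools was run on Affymetrix arrays with 5 µg of RNA each, per the labels. The deposited value table holds linear intensity values computed by the authors; the submitters' processing notes name GCRMA (version not given in the sources used here), and log2 of the deposited values was taken. Per the file headers, the deposited per-array files hold a signal intensity of the MAS5 type and a detection p-value, and a probe set counts as detected under 0.05. The table has 45101 probe sets, 64 of them controls that entered no test. By GEO's platform annotation, 34945 have a single symbol, 932 more than one and 9160 none, and only the first kind is named.

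AKR/J minus C57Bl/6J was fitted with limma 3.58.1 in R 4.3.3 (lmFit, eBayes, Benjamini-Hochberg) on 20772 probe sets with a detection on 4 or more of the 8 arrays, and 2968 were called. Alternatives covered the filter, the MAS5-type signals (floor at the 5th percentile, quantile normalized), 2 further normalizations, the variance model, array weights, the choice of probe set, a split of the arrays that no label gives, arrays left out and, added after seeing the data, adjustment over 1 probe set per gene. The fit was tested on simulated data of 20772 probe sets, 200 of them shifted: 43.3% of the 1.5-fold shifts, 77.6% of the 2-fold and 95.5% of the 4-fold were called. In this 1 simulation 10 probe sets that were not shifted were also called, 6.49% of all calls. The members, gene lists and motifs were chosen with earlier results of these data known. Named genes are all members and, per further list, up to 3 called genes of smallest p in each direction or the 2 brightest. The files give no scan date, and the number of arrays limits the precision.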

Additional observations from a re-analysis of the deposited data

Results flagged for a closer look

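In 50 sets of 4 arrays (25 genes in each strain), 1 array stood far from the other 3 by Dixon's ratio in 2, where chance flags about 1 in 20 sets, or 2.5. For Tm7sf2, AKR/J array 1 was at 6.23 and the other AKR/J arrays at 5.70 to 5.73, which lie next to the C57Bl/6J values. For Insig1, C57Bl/6J array 8 was at 9.36 and the other C57Bl/6J arrays at 8.77 to 8.83. With the MAS5-type signals these arrays stood less apart: Tm7sf2 was at 7.56 on AKR/J array 1 and at 7.44 and 7.45 on AKR/J arrays 2 and 4, with array 3 lower, and Insig1 was at 9.54 on C57Bl/6J array 8 and at 9.23, 8.93 and 9.27 on the other C57Bl/6J arrays. The cause of either was not tested.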

How the results depend on the processing

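With 8 arrays, differences of 1.5-fold can be missed, and 43.3% of simulated ones were called. Only 200 of the 20772 simulated probe sets were shifted, while 2968 were called in the data. Fewer shifts make the adjusted threshold stricter, so the share found in the data may be higher. No paired analysis was possible because the titles number the arrays 1 to 8 with no number shared between the strains. Of 520 values of the 25 member genes under the alternatives, 462 kept their direction and their side of the threshold. Among the others, 17 lost the call, 7 gained one, 34 changed sign without a call and 0 reversed a call. Only the 3 called genes had a call to lose, so most of the 462 are of genes that stayed uncalled. The 3 called members became 1 (Sc5d) with arrays 1, 2, 5 and 6 alone, where 1 was lower in AKR/J, and all probe sets called fell to 1054 there and to 403 with arrays 3, 4, 7 and 8 alone, each with fewer arrays. Called higher in AKR/J was 1 member in place of 0 with the MAS5-type signals (Scap) and with the array split as a block (Ebp, adjusted p = 0.0493). With 1 array left out, 2 to 4 members were called, 0 to 1 higher (Abcg1 without array 4, Ebp without array 5) and 2 to 3 lower, and 2047 to 2820 probe sets. Ggps1 by its brightest probe set lost its call with no filter (adjusted p = 0.102), centring on array medians (0.0581), a quantile normalization on top (0.0568), trend and robust variance (0.0559), array weights (0.0729) and either set of 4 arrays. Lss was called without the _x_at, _s_at and _a_at probe sets (-0.49) and with the mean of its probe sets (-0.37, adjusted p = 0.0433). Adjustment over 1 probe set per gene called the same 3 members. Among the genes named from further lists, Scd1, Scd2, Fads2, Tmem97 and Acat1 were called in all 8 fits with 1 array left out, and Erlin2, Trim8, Stard3nl and Dhdds in 0 to 3 of them.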
